A study of Mus musculus with 10 samples.

Results

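The genes examined were 10 that mark cortical inhibitory neurons, 3 of which serve the synthesis and vesicle loading of GABA (Gad1, Gad2 and Slc32a1) and 7 of which mark interneuron subclasses (Pvalb, Sst, Vip, Lamp5, Npy, Cck and Reln). They were selected by gene symbol, and all 10 were found among the 18216 genes of the table and passed the filter on low values, so each was among the 16781 genes tested. The samples were prefrontal cortex from 10 male C57BL/6N mice at postnatal day 10, with 1 RNA-seq library per mouse. Of these, 5 were heterozygous for Arid1b (HT1 to HT5) and 5 were wild type (WT1 to WT5). Arid1b encodes a subunit of the BAF chromatin-remodelling complex, and the mutant allele, made with CRISPR/Cas9 nickase, lacks exon 5 sequence and carries a short insertion that truncates the protein. The allele is carried by all cells of the body and was not limited to neurons, and heterozygous fathers were mated with wild-type mothers. The question was whether the transcripts that define inhibitory neurons, and the balance of their subclasses, differed between HT and WT cortex.

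Inhibitory neurons of the cortex make GABA from glutamate with the glutamate decarboxylases GAD67 (Gad1) and GAD65 (Gad2) and load it into vesicles with the transporter VGAT (Slc32a1). Pvalb and Sst mark the main classes that come from the medial ganglionic eminence, whereas Vip, Lamp5 and a part of the Cck and Reln cells come from caudal ganglionic and preoptic sources. Early in postnatal life these neurons are already in place, but the parvalbumin protein appears late, as fast-spiking cells mature. Several of the markers are not confined to interneurons: Cck is abundant in pyramidal neurons, Lamp5 is found in some excitatory neurons, and Reln is made in early life by Cajal-Retzius cells. GABA is also the transmitter of most neurons of the striatum and of granule cells of the olfactory bulb, which border the prefrontal cortex.

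Values are normalised counts, that is, estimated reads per gene divided by a size factor for each library, and the depth of the libraries is unknown, so precision rests on the spread between mice. In these bulk samples fewer cells of a type and less RNA per cell cannot be told apart. Arid1b, the check of the labels, ranged from 1767 to 1987 in HT and from 2662 to 3018 in WT (log2 fold change -0.59, SE 0.048, limma adjusted p 9.96e-05). The vesicular glutamate transporter Slc17a7, a marker of cortical glutamatergic neurons, was measured at 45453 ± 5032 in HT and 47379 ± 4358 in WT (SD, n = 5). Some libraries stood apart in marker scores, which are the mean over a list's genes of each gene's z-score across the 10 mice. HT2 had a pan-neuronal score of -1.90, against -0.28 to 0.56 in the other 9. HT5, WT3 and WT5 had striatum scores of -1.27, -1.47 and -1.39, against 0.30 to 1.06 in the other 7. HT2 and WT4 had the highest olfactory bulb scores, 1.46 and 1.15.

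The promoters of Npy, Vip and Sst are shown because Npy was the one gene of the 10 whose genotype groups did not overlap, Vip had the largest difference in the opposite direction, and Sst is made in many of the same neurons as Npy. Each window runs from 250 bases before to 50 bases after the start site, on the strand of the gene (RefSeq, GRCm38.p6). Capitals mark 2 motifs searched on both strands, the cAMP response element (TGACGTCA) and the TATA box (TATAAA), which do not overlap each other.

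Npy, chr6:49822460-49822759, plus strand: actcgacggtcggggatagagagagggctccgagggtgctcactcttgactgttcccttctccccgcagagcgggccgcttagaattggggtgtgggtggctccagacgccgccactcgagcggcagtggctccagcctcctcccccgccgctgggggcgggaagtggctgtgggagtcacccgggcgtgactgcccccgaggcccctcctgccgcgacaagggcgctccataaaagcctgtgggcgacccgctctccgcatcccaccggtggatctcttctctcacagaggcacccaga

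Vip, chr10:5638968-5639267, plus strand: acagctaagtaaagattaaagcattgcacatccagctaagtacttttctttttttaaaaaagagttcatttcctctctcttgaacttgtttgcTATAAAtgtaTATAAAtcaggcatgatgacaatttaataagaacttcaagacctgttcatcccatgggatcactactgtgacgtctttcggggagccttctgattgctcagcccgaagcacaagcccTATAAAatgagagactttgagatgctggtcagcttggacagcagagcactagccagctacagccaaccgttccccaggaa

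Sst, chr16:23890795-23891094, minus strand: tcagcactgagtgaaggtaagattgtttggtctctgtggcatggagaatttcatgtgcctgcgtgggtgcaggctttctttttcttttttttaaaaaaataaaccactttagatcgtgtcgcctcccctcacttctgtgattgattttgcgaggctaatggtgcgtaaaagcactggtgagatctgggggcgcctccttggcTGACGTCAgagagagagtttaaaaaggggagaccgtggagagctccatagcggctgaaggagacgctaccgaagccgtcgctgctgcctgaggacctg

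The cAMP response element was present in the Sst window alone among the 12 windows of the 10 genes, 48 bases before the start site, and in 1.79% of all 32851 windows of this length. The TATA letters were present in the windows of Gad1 and Vip, in Vip 30, 147 and 157 bases before the start site, and in 13.6% of all windows. The letters TAATTA, a core bound by many homeodomain factors, and TGANTCA, the AP-1 element, were present in none of the 12 windows, against 5.29% and 7.81% of all windows. The Npy window held none of the 4 motifs.

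Of the 10 genes, 5 were higher and 5 lower in HT, and the median log2 fold change was -0.0044 beside -0.0035 over all genes tested. None passed the limma test at an adjusted p of 0.05 (smallest 0.39, for Npy), a level passed by 3 of the 16781 genes (0.0179%). At an unadjusted p under 0.05 there were 2 of the 10, Npy higher and Vip lower, where 9.23% of all genes reached that level. The groups did not overlap for 1 of the 10, Npy, and for 1.62% of all genes.

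**Figure D1:**
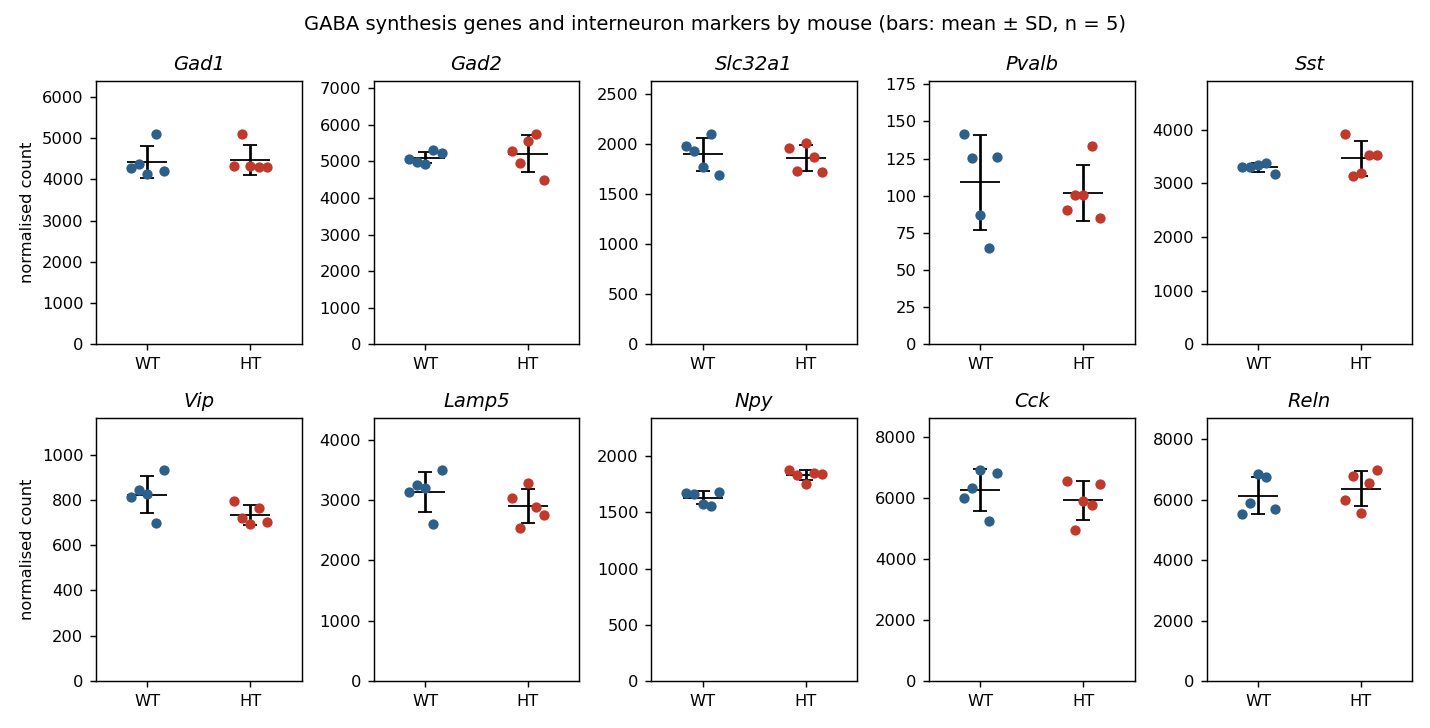
Normalised counts (vertical axes, starting at 0, scaled separately for each gene) of the 10 genes in 5 WT (blue) and 5 HT (red) mice, where points are mice and bars are mean ± SD. The Npy values of HT mice (1757 to 1875) all lay above those of WT mice (1561 to 1682), whereas the groups overlapped for the other 9 genes.

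GABA synthesis and vesicle loading came first among the comparisons. Gad1, which supplies most GABA of the cell body (ENSMUSG00000070880, GRCm38 chromosome 2, 70553072 to 70602014, plus strand), had normalised counts of 4328, 5111, 4333, 4313 and 4291 in HT1 to HT5 and 4281, 4386, 4126, 5096 and 4214 in WT1 to WT5. HT2 and WT4 were far above the other 8 mice, which lay between 4126 and 4386, so 1 mouse of each genotype stood out. HT averaged 101% of WT (log2 fold change 0.019, SE 0.065, 95% interval -0.12 to 0.16, limma adjusted p 0.94). Gad2, the isoform concentrated at nerve terminals (ENSMUSG00000026787, GRCm38 chromosome 2, 22622205 to 22693874, plus strand), had 5295, 4947, 5552, 5760.1 and 4488 in HT1 to HT5 and 5069, 4982, 4939, 5319 and 5224 in WT1 to WT5. The HT values spread wider than the WT values at both ends, with HT5 lowest and HT4 highest of all mice, and HT averaged 102% of WT (log2 fold change 0.023, SE 0.061, 95% interval -0.11 to 0.15, limma adjusted p 0.91). Slc32a1 (ENSMUSG00000037771, GRCm38 chromosome 2, 158610767 to 158615748, plus strand) had 1953, 1731, 2011, 1864 and 1721 in HT1 to HT5 and 1975, 1931, 1770.1, 2100.3 and 1691 in WT1 to WT5. All 5 HT mice lay inside the WT range (log2 fold change -0.027, SE 0.066, 95% interval -0.17 to 0.11, limma adjusted p 0.90). Read as folds, the intervals ran from 0.919 to 1.12 for Gad1, from 0.928 to 1.11 for Gad2 and from 0.890 to 1.08 for Slc32a1. Folds within these bounds, including no difference, remained compatible with the values of 5 mice per group.

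The ratio of Gad1 to Gad2 normalised counts described the balance of the decarboxylases within a mouse. It was 0.817, 1.03, 0.780, 0.749 and 0.956 in HT1 to HT5 and 0.845, 0.880, 0.836, 0.958 and 0.807 in WT1 to WT5. The mean was 0.867 ± 0.122 in HT and 0.865 ± 0.0583 in WT (SD, n = 5). The highest ratios were those of HT2, WT4 and HT5, and the lowest was that of HT4, so the ratio varied between mice within each genotype.

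Npy encodes neuropeptide Y, which cortical Sst cells and neurogliaform cells release (ENSMUSG00000029819, GRCm38 chromosome 6, 49822710 to 49829507, plus strand). It had normalised counts of 1875, 1834, 1757, 1847 and 1841 in HT1 to HT5 and 1676, 1666, 1576, 1561 and 1682 in WT1 to WT5. All 5 HT mice exceeded all 5 WT mice, and the lowest HT value (HT3) was 1757 against a highest WT value (WT5) of 1682. The means were 1831 ± 44.2 in HT and 1632 ± 58.8 in WT (SD, n = 5), so that HT stood at 112% of WT. The log2 fold change was 0.17 (SE 0.042, 95% interval 0.075 to 0.26), with an unadjusted limma p of 0.0016 and an adjusted p of 0.39. An exact two-sided permutation test gave p = 0.0079, the smallest that 5 against 5 mice can give. This value follows from the lack of overlap, which was also seen in 1.62% of all genes, and adds nothing to it. Npy also varied little within a genotype: its residual SD on the log2 scale was 0.0446, at percentile 1.81 of all genes tested. By unadjusted p it ranked number 69 of 16781 genes.

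Sst encodes somatostatin, the peptide of dendrite-targeting Martinotti cells (ENSMUSG00000004366, GRCm38 chromosome 16, 23889573 to 23890958, minus strand), and had 3926, 3137, 3188, 3536 and 3535 in HT1 to HT5 and 3307, 3299, 3351, 3386 and 3166 in WT1 to WT5. WT mice lay close together (SD 83.4), whereas HT mice spread on both sides, with 3 above and 1 below every WT mouse. HT averaged 105% of WT (log2 fold change 0.065, SE 0.058, 95% interval -0.059 to 0.19, limma adjusted p 0.72). Pvalb, a calcium buffer of fast-spiking basket and chandelier cells (ENSMUSG00000005716, GRCm38 chromosome 15, 78191114 to 78206400, minus strand), had the lowest level per kilobase of the 10, with normalised counts of 90.6, 101, 100.4, 133 and 84.9 in HT1 to HT5 and 142, 126, 87.3, 64.5 and 126 in WT1 to WT5. Its groups overlapped throughout, and its residual SD of 0.373 was the largest of the 10 genes. The interval of its difference was correspondingly wide (log2 fold change -0.057, SE 0.20, 95% interval -0.50 to 0.38, limma adjusted p 0.94), so changes between 0.709-fold and 1.304-fold lay within it.

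Vip encodes vasoactive intestinal peptide, found in interneurons that mostly inhibit other interneurons (ENSMUSG00000019772, GRCm38 chromosome 10, 5639218 to 5647617, plus strand). It had normalised counts of 795, 720.1, 693, 765 and 701 in HT1 to HT5 and 812, 845, 826, 699.8 and 930.3 in WT1 to WT5. All 5 HT mice lay below the WT mean, but WT4 at 699.8 lay among them. The means were 735 ± 44.0 in HT and 823 ± 82.6 in WT (SD, n = 5), with log2 fold change -0.16 (SE 0.073, 95% interval -0.32 to -0.00072). The unadjusted limma p was 0.049, the adjusted p 0.54, and the exact permutation p 0.071. Leaving out HT2, HT3, HT5, WT1, WT2, WT3 or WT5 each brought the unadjusted p above 0.05, and leaving out WT4 brought it to 0.0056 (log2 fold change -0.22). The log2 fold change was -0.096 with the olfactory bulb score as a covariate (unadjusted limma p 0.17) and -0.077 without HT5, WT3 and WT5 (p 0.39).

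Lamp5, a lysosome-associated membrane protein that marks neurogliaform cells and some excitatory neurons (ENSMUSG00000027270, GRCm38 chromosome 2, 136052239 to 136069917, plus strand), had 3037, 2530.4, 3282, 2888 and 2758 in HT1 to HT5 and 3125, 3241, 3192, 2597 and 3491 in WT1 to WT5. HT2 and WT4 were the lowest mice (log2 fold change -0.11, SE 0.080, 95% interval -0.28 to 0.064, limma adjusted p 0.66). Cck, the cholecystokinin gene (ENSMUSG00000032532, GRCm38 chromosome 9, 121489824 to 121495694, minus strand), had 6551, 4952, 5888, 5753 and 6467 in HT1 to HT5 and 6004, 6319, 6902, 5228 and 6808 in WT1 to WT5. Again HT2 and WT4 were lowest, and 4 of 5 HT mice lay inside the WT range (log2 fold change -0.078, SE 0.085, 95% interval -0.26 to 0.11, limma adjusted p 0.77). Its difference was -0.015 without HT2, -0.041 without WT3, -0.046 without WT5 and -0.14 without WT4. Reln encodes the secreted glycoprotein reelin, which guides cortical layering (ENSMUSG00000042453, GRCm38 chromosome 5, 21884454 to 22344702, minus strand), and had 5984, 6773, 5570.5, 6559 and 6974 in HT1 to HT5 and 5517, 5909, 6847, 6745 and 5686 in WT1 to WT5. The groups overlapped (log2 fold change 0.054, SE 0.075, 95% interval -0.11 to 0.22, limma adjusted p 0.83), with a gap between 5984 in HT1 and 6559 in HT4 that put 3 HT and 2 WT mice above it and 2 HT and 3 WT mice below it. Leaving out single mice gave differences from 0.017 (without WT1) to 0.10 (without HT3). Of the markers of Cajal-Retzius cells, 5 were tested, 3 higher and 2 lower in HT, with summed levels of 3101 to 4882 in HT and 3171 to 4586 in WT. The defining marker Trp73 was 22.7 ± 10.3 in HT and 36.9 ± 25.7 in WT (SD, n = 5), and Lhx1 and Lhx5 were not tested. The part of these cells in the Reln values was not tested.

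**Figure D2:**
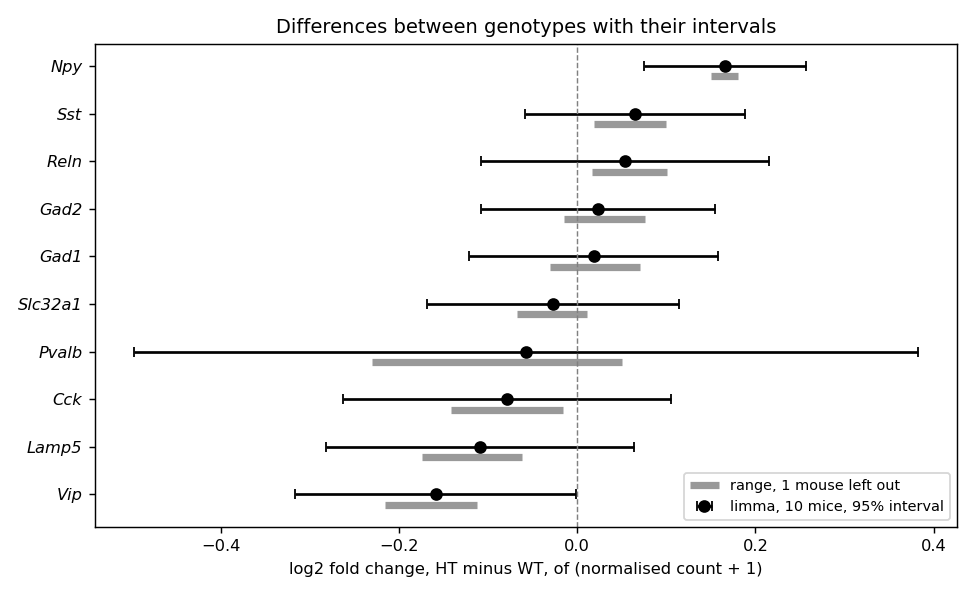
Log2 fold change of HT minus WT for each of the 10 genes (horizontal axis, on log2 of the normalised count + 1), as limma estimates with 95% intervals (black), beside the range of the estimate when each mouse was left out in turn (grey). The Npy interval (0.075 to 0.26) lies farthest from 0, the Pvalb interval (-0.50 to 0.38) is the widest, and the grey range of Gad1, Gad2, Slc32a1 and Pvalb crosses 0.

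Levels were compared between genes per kilobase of the union of a gene's exons. In WT mice, Cck (4791 ± 521 normalised counts per kilobase, SD, n = 5), Sst (4579 ± 116) and Npy (2884 ± 104) were the highest. Lamp5 (1067 ± 112), Gad2 (869 ± 27.5), Slc32a1 (677 ± 58.4) and Gad1 (579 ± 51.0) followed. Reln (259 ± 25.9), Vip (242 ± 24.3) and Pvalb (105 ± 30.7) were the lowest. Over all 10 mice the ranges overlapped between the neighbours Cck and Sst, Lamp5 and Gad2, Slc32a1 and Gad1, and Reln and Vip, and did not overlap between the other neighbouring pairs. HT mice had the same order except that Sst (4805 ± 442) stood above Cck (4538 ± 494). With the longest coding transcript as the length, Gad1 moved above Gad2 in WT (1318 against 889) and Vip above Reln (538 against 525).

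The heat map of single mice showed which samples carried the variation. HT2 and WT4 shared high Gad1 and low Lamp5 and Cck, and their genotypes differ. In these mice Dlx2, a transcription factor of inhibitory progenitors that was named after its values were seen, had 489.6 and 463 normalised counts, against 162 to 399.5 in the other 8. The summed level of the 10 olfactory bulb markers ranged from 3839 to 7262 in HT and from 3268 to 7363 in WT, and its part in the Gad1 values was not tested. Without HT2 and WT4, a choice made after seeing the data, 3 of the 10 genes had an unadjusted p under 0.05, where 8.99% of all genes tested reached that level: Npy (log2 fold change 0.15), Vip (-0.21) and Lamp5 (-0.13), with a smallest limma adjusted p of 0.42.

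**Figure D3:**
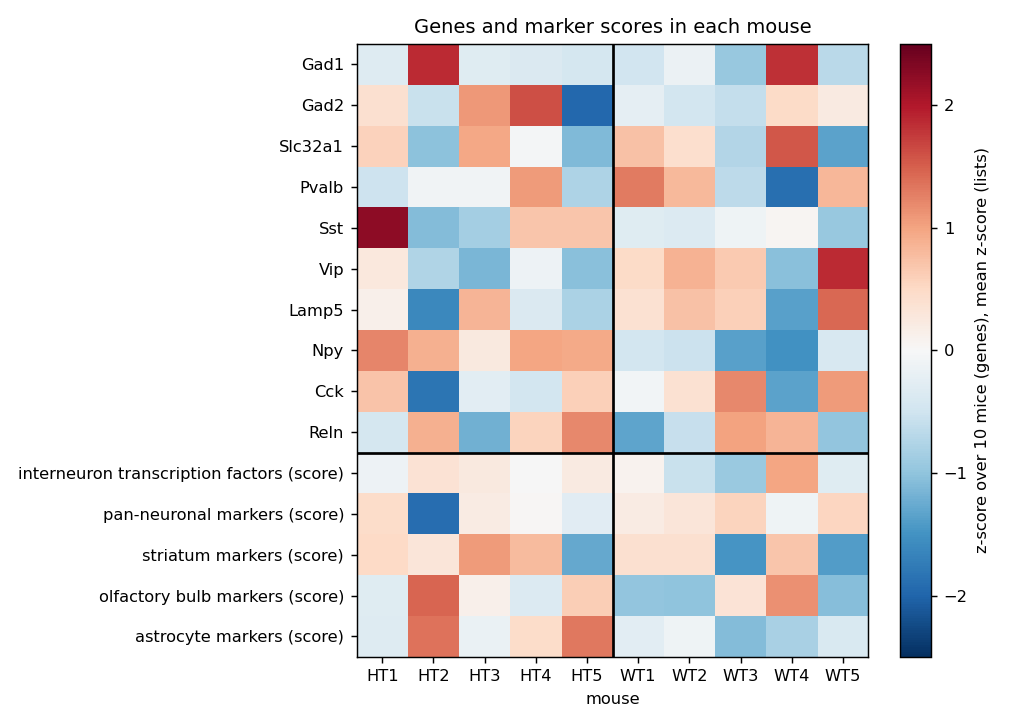
Z-scores over the 10 mice of log2(normalised count + 1) for the 10 genes (upper rows) and of 5 marker lists, as the mean z-score of a list (lower rows), with HT mice left and WT mice right of the line. Gad1 and the olfactory bulb score are highest in HT2 and WT4, the striatum score is low in HT5, WT3 and WT5, and Npy is the one gene above its mean in all HT mice and below it in all WT mice.

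Whether the genes varied together across mice was asked for 17 relations, 7 between pairs of the genes and 10 with the striatum score. Lamp5 and Reln ran in opposite directions over 10 mice (r = -0.73, permutation p = 0.021, adjusted 0.18, rho = -0.64, permutation p = 0.054, adjusted 0.31), and r was -0.67 without HT2 and WT4. Vip and Cck ran together (r = 0.64, permutation p = 0.048, adjusted 0.27, rho = 0.64, permutation p = 0.055, adjusted 0.31), with r = 0.60 without HT3 and WT5. Because HT5, WT3 and WT5 formed a cluster of their own in the striatum score, those relations were computed within the other 7 mice. There Gad2 followed the striatum score (r = 0.86, exact permutation p = 0.013, adjusted 0.18, rho = 0.96, exact permutation p = 0.0028, adjusted 0.047), and r was 0.88 without HT3 and HT4. Outside these 7 mice, Gad2 was 4488 in HT5 and 4939 in WT3, next to 4947 in HT2. It was 5224 in WT5, above HT2, WT1 and WT2, whose striatum scores were higher. The relation is thus given for those 7 mice alone. Of the 17 relations, 1 passed adjustment by rho and none by r. Gad1 and Gad2, within the 8 mice other than HT2 and WT4, had r = 0.22 (exact permutation p = 0.59, adjusted 0.86) and rho = 0.36 (exact permutation p = 0.39, adjusted 0.63). All of these measures share 1 table and its scaling. The summed level of the 12 striatum markers was 7146 to 22214 in HT and 6171 to 17439 in WT, and all 12 were higher in HT with none at an unadjusted p under 0.05.

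Other genes of GABA handling were then examined: of 14 tested (GABA and glutamine transporters, enzymes of GABA and glutamate metabolism, GABA-B receptors and inhibitory postsynaptic scaffolds), 7 were higher and 7 lower in HT, and the median log2 fold change was -0.0038. None passed adjustment, and 1 of the 14 had an unadjusted p under 0.05, a level reached by 9.23% of all genes. That gene, Gabbr1, which encodes a GABA-B receptor subunit, had 20749 ± 744 in HT and 22305 ± 443 in WT (SD, n = 5), with log2 fold change -0.10 (SE 0.042, unadjusted limma p 0.027, adjusted 0.51). Its groups did not overlap, as for 1.62% of all genes. Of all list genes named for their level, which is the mean normalised count and not a level per length, the highest here was Glul, the glutamine synthetase of astrocytes, at 36115 ± 5362 in HT and 32061 ± 1594 in WT (SD, n = 5), with log2 fold change 0.16 (SE 0.087, unadjusted limma p 0.085, adjusted 0.57). The lowest was the transporter gene Slc6a12, at 31.4 ± 16.4 in HT and 26.2 ± 11.4 in WT (SD, n = 5), with log2 fold change 0.23 (SE 0.38, unadjusted limma p 0.56, adjusted 0.86).

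Among 22 further markers of interneuron subclasses that were tested, 13 were higher and 9 lower in HT, and the median log2 fold change was 0.031. None passed adjustment, and 4 of the 22 had an unadjusted p under 0.05, against 9.23% of all genes. With the bulb score as a covariate 12 were higher and 10 lower (median 0.0064). Without HT2 and WT4 14 were higher and 8 lower (median 0.057), as with the astrocyte score (median 0.10). Tac2, which encodes neurokinin B and is found in a part of the Vip cells, had 128 ± 11.2 in HT and 175 ± 27.6 in WT (SD, n = 5), with log2 fold change -0.43 (SE 0.12, unadjusted limma p 0.0032, adjusted 0.41). Cnr1, the cannabinoid receptor of Cck basket cells, had 5032 ± 498 in HT and 5689 ± 371 in WT (SD, n = 5), with log2 fold change -0.18 (SE 0.068, unadjusted limma p 0.019, adjusted 0.49). For both, all 5 HT mice lay below the WT mean. Id2, a helix-loop-helix inhibitor present in neurogliaform cells, had 2930.1 ± 23.7 in HT and 2667 ± 166 in WT (SD, n = 5), with log2 fold change 0.14 (SE 0.046, unadjusted limma p 0.010, adjusted 0.48), with no overlap between groups, as for 1.62% of all genes. Nos1, the neuronal nitric oxide synthase of long-range Sst and neurogliaform cells, had 1687 ± 78.0 in HT and 1544 ± 108 in WT (SD, n = 5), with log2 fold change 0.13 (SE 0.055, unadjusted limma p 0.035, adjusted 0.51), with all 5 HT mice above the WT mean, and was named after its values were seen as the other gene of the count. The marker with the lowest mean, Chat, the enzyme of acetylcholine synthesis, had 24.3 ± 13.0 in HT and 20.7 ± 9.40 in WT (SD, n = 5), with log2 fold change 0.085 (SE 0.51, unadjusted limma p 0.87, adjusted 0.97).

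Of 11 genes of fast-spiking interneurons, 9 were lower and 2 higher in HT by the log2 fold change, as in all list counts, and the median log2 fold change was -0.088, with none at an unadjusted p under 0.05. The sodium channel gene Scn1a, with the highest mean, had 3494 ± 364 in HT and 3713 ± 203 in WT (SD, n = 5), with log2 fold change -0.093 (SE 0.068, unadjusted limma p 0.20, adjusted 0.66), and Pthlh, with the lowest, had 40.7 ± 2.58 in HT and 35.4 ± 8.78 in WT (SD, n = 5), with log2 fold change 0.23 (SE 0.19, unadjusted limma p 0.25, adjusted 0.70). Kcna1, counted as lower at log2 fold change -0.0057, had means of 1362 ± 248 in HT and 1351 ± 133 in WT (SD, n = 5) and was named after its values were seen. The list's mean z-score was lowest in HT2 (-1.35) and HT5 (-0.85), against -0.50 to 0.72 in the other 8 mice. The astrocyte scores of HT2 and HT5 were 1.35 and 1.32, against -1.07 to 0.46 in the others, and with the astrocyte score as a covariate, added after seeing the data, 3 of the 11 genes were lower and 8 higher (median log2 fold change 0.079). With the bulb score as a covariate 7 were lower, and without HT2 and WT4 8 were. Because the astrocyte markers were all higher in HT, the astrocyte covariate also carries a genotype difference. The part of astrocytes in the fast-spiking values was not tested. Of 14 interneuron transcription factors tested, 10 were higher and 4 lower in HT, with a median of 0.078 and none at an unadjusted p under 0.05. The olfactory bulb list shares Sp8 with this list. Dlx1, Dlx2 and Sp8 were highest in HT2 and WT4, the mice with the highest bulb scores. In contrast, Lhx6, Satb1 and Npas1 were lowest in HT2, and WT3 had the lowest score of this list (-0.93) with a bulb score of 0.34. Dlx1, Sp8, Lhx6 and Npas1 were named after their values were seen, and the relation of the 2 lists was not tested. With the bulb score as a covariate 8 of the 14 factors were higher and 6 lower (median 0.039), and without HT2 and WT4 12 were higher and 2 lower (median 0.14). Satb1, with the highest mean, had 4615 ± 577 in HT and 4888 ± 371 in WT (SD, n = 5), with log2 fold change -0.089 (SE 0.081, unadjusted limma p 0.29, adjusted 0.72), and Dlx6, with the lowest, had 146 ± 21.7 in HT and 142 ± 52.0 in WT (SD, n = 5), with log2 fold change 0.083 (SE 0.20, unadjusted limma p 0.68, adjusted 0.90).

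Receptors for the peptides and for reelin were examined together with Dab1, the intracellular adaptor of reelin signalling. Of these 13 genes tested, 10 were lower and 3, Dab1 among them, higher in HT (median log2 fold change -0.068), and none passed adjustment. The mean z-score of the list was lowest in HT2 (-0.92) and HT5 (-0.77), the mice with the highest astrocyte scores, against -0.15 to 0.88 in the other 8, and with the astrocyte score as a covariate 5 were lower and 8 higher (median 0.015). With the bulb score 10 were lower and 3 higher (median -0.096), and without HT2 and WT4 9 were lower and 4 higher (median -0.068). The astrocyte markers were all higher in HT, so the astrocyte covariate also carries a genotype difference. The part of astrocytes in these receptor values was not tested. Sstr4, a somatostatin receptor, had 458 ± 88.1 in HT and 559 ± 54.2 in WT (SD, n = 5), with log2 fold change -0.31 (SE 0.12, unadjusted limma p 0.027, adjusted 0.51). Cckbr, the main cholecystokinin receptor of the brain, had 1889 ± 202 in HT and 2151 ± 216 in WT (SD, n = 5), with log2 fold change -0.19 (SE 0.080, unadjusted limma p 0.034, adjusted 0.51). In each, 4 of 5 HT mice lay below the WT mean. Lrp8, a reelin receptor with the highest mean of the list, had 6413 ± 327 in HT and 6702 ± 282 in WT (SD, n = 5), with log2 fold change -0.064 (SE 0.047, unadjusted limma p 0.19, adjusted 0.65), and Vipr2, with the lowest, had 60.5 ± 30.1 in HT and 53.0 ± 24.2 in WT (SD, n = 5), with log2 fold change 0.19 (SE 0.32, unadjusted limma p 0.57, adjusted 0.86). Receptors of neuropeptide Y (Npy1r, Npy2r and Npy5r) had log2 fold changes of -0.076, -0.047 and -0.31, with limma adjusted p-values of 0.73, 0.93 and 0.58. They were named after their values were seen, as the receptors of the Npy peptide.

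**Figure D4:**
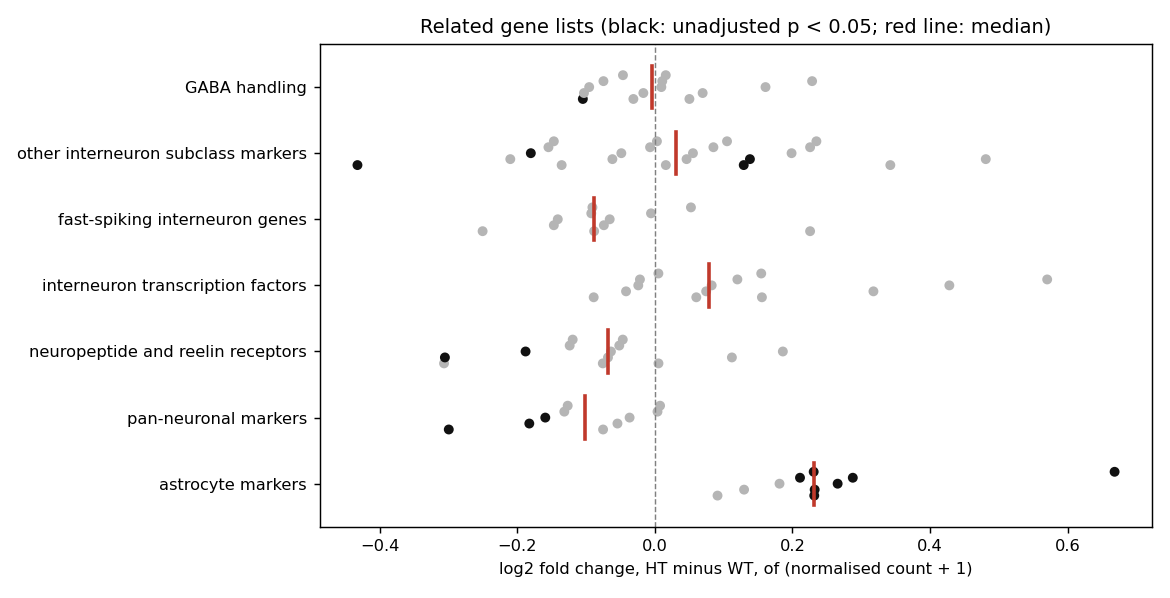
Log2 fold change of HT minus WT (horizontal axis, on log2 of the normalised count + 1) for each tested gene of 7 related lists (Dab1 is counted with the receptors), with black points for an unadjusted limma p under 0.05, grey points for the others and a red line at the median of a list. The medians of the interneuron lists lie between -0.088 and 0.078, and 7 of 10 astrocyte genes are black, all on the right of 0.

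The 10 pan-neuronal genes served as a further reference. Of these 8 were lower and 2 higher in HT (median log2 fold change -0.10), and 3 had an unadjusted p under 0.05, namely Elavl4, Stmn2 and Tubb3 (9.23% of all genes reached that level), with none past adjustment. HT2 stood apart at a score of -1.90. The list's median was -0.057 without HT2 and WT4, -0.011 with the bulb score as a covariate, and 0.046 with the astrocyte score, where 6 were higher and 4 lower. When each mouse was centred on the pan-neuronal genes, the log2 fold change of every gene moved up by the same 0.11, which put Npy at 0.27, Sst at 0.17 and Vip at -0.053 and left the differences among genes as they were. Of the 10 astrocyte markers all were higher in HT, 7 with an unadjusted p under 0.05 (9.23% of all genes) and none past adjustment, with HT2 and HT5 apart from the others as given above. Their median log2 fold change was 0.23, and 0.16 without HT2 and WT4, and their summed level was 160310.0 to 203761 in HT and 146002 to 172439 in WT. With the astrocyte score as a covariate, a choice made after seeing the data, the log2 fold change of Npy was 0.13 (unadjusted limma p 0.032, adjusted 0.98). This covariate also carries the genotype difference of its markers, and the part of astrocytes in the pan-neuronal and Npy values was not tested.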

How the data were processed

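Prefrontal cortex RNA from 5 HT and 5 WT male mice at postnatal day 10 was sequenced, with genotype and replicate number taken from the sample titles. The authors estimated transcript abundance with Salmon 1.1.0 on GRCm38 with GC-bias correction, summed it to genes with tximport and divided it by DESeq2 1.30.1 size factors. What was deposited is thus a normalised signal (normalised count) and not whole reads: in each sample, 3.3% to 6.8% of low values came out as whole multiples of the smallest (tolerance 0.02), so depth is unknown and no count test was run. A change in the total RNA of cells would not be seen on this scale. Sample totals after scaling were 31106330 to 32106791.

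Values were taken as log2(value + 1), which understates fold changes of low genes, and genes averaging at least 10 (16781) were tested two-sided with limma 3.58.1 in R 4.3.3 (eBayes with a mean-variance trend, genotype only, Benjamini-Hochberg over all genes, threshold 0.05). The test was checked on simulated data. Mice are the replicates. Correlations used 100000 permutations, or exact permutation under 10 mice, with no pooled value where mice formed separate clusters. Positions and lengths came from GENCODE M21 (18205 of 18216 identifiers found) and promoters from RefSeq. The genes and lists were chosen with earlier results of these data known. Named genes were the 10, Arid1b and, of each other list, its tested genes of highest and lowest mean and those with an unadjusted p under 0.05 (the 3 smallest p where more). Sncg, Nkx2-1 and Lhx5 fell under the filter, and Cckar and Lhx1 had no row. A marker that the rule names, and the counts over its list, are not reported here. Alternatives covered pseudocount, filter, scaling, variance model, sample weights, replicate block, single mice, marker covariates and pan-neuronal centring; the astrocyte covariate, the exclusion of pairs or trios of mice and the list counts in alternative fits were added after seeing the data.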

Additional observations from a re-analysis of the deposited data

Results flagged for a closer look

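Gad1 in HT2 (5111 normalised counts) and in WT4 (5096) stood apart from the other mice of the same genotype: the gap to the next mouse was 0.949 of the range of the HT group and 0.732 of the range of the WT group, above Dixon's critical value of 0.71 for 5 samples. Among 20 groups examined (10 genes in both genotypes), chance alone flags about 1. These were also the mice with the highest olfactory bulb scores (1.46 and 1.15), and with that score as a covariate the log2 fold change of Gad1 was -0.041.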

How the results depend on the processing

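Npy stayed higher in HT with an unadjusted limma p under 0.05 in 25 of 25 alternatives (log2 fold change 0.13 to 0.27, adjusted p 0.35 to 1.00), and none of the 10 genes passed adjustment in any alternative. Vip, Sst and Lamp5 kept their directions in 25 of 25, but not their sizes. Lamp5, -0.11 as reported, was -0.025 with the olfactory bulb score, -0.011 with the astrocyte score and -0.026 without HT5, WT3 and WT5, and ran from -0.17 (without WT4) to -0.061 (without HT2) with single mice left out, and was -0.068 without WT5. Sst, 0.065 as reported, was 0.13 with the astrocyte score, 0.11 without HT2 and WT4 and 0.019 to 0.10 with single mice left out, lowest without HT1 and highest without HT2. Centring on the pan-neuronal genes moved every gene up by 0.11, so that Slc32a1 stood at 0.078, Pvalb at 0.049 and Cck at 0.027, a common shift and not a turn of single genes. On that scale the 2 genes with an unadjusted limma p under 0.05 were Npy and Sst (p 0.039), where 7.34% of all genes tested reached that level, and Vip had p 0.59. Of the other 6 genes, none of which passed the test, all but Cck turned direction in at least 1 other alternative. Gad1 was -0.0082 with the striatum score as covariate, -0.041 with the olfactory bulb score, -0.033 with the astrocyte score and -0.021 without HT5, WT3 and WT5. Gad2 was -0.014 with the striatum score. Slc32a1 was 0.0027 with sample quality weights, 0.072 with the astrocyte score and 0.036 without HT2 and WT4. Pvalb was 0.15 with the olfactory bulb score and 0.0044 without HT5, WT3 and WT5. Cck was -0.012 with the olfactory bulb score, -0.0039 with the astrocyte score, -0.023 with the striatum score and -0.018 without HT5, WT3 and WT5. Reln was -0.019 with the olfactory bulb score and -0.0049 with the astrocyte score. Leaving out each mouse in turn gave -0.030 to 0.071 for Gad1 (negative without HT2 or WT3), -0.014 to 0.076 for Gad2 (negative without HT3 or HT4), -0.067 to 0.011 for Slc32a1 (positive without WT4) and -0.23 to 0.051 for Pvalb (positive without HT5, WT1, WT2 or WT5).

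The count of the 10 genes at an unadjusted p under 0.05, 2 as reported, was 1 with quantile normalisation, upper-quartile rescaling, the replicate block, no variance trend, each of the 3 covariates and without HT5, WT3 and WT5. Over all genes tested, 3.86% to 9.5% reached that level in these settings. The count was 1 to 3 when each mouse was left out (6.45% to 10.9% of all genes), 3 without WT4 (Npy, Vip and Lamp5) and 1 without HT2, HT3, HT5, WT1, WT2, WT3 or WT5. Over all genes, 5 passed adjustment with the olfactory bulb score and 1 on the pan-neuronal scale, where Arid1b was -0.48 with a limma adjusted p of 0.13, against 3 as reported. The replicate numbers did not pair the mice (correlations of same-numbered mice from -0.041 to 0.10), and with the replicate block the Vip p was 0.078 and 1 of the 10 genes, Npy, had an unadjusted p under 0.05. Lengths from the longest coding transcript changed the ranks of Gad1, Gad2, Slc32a1, Vip and Reln. Read depth is unknown, and 5 mice per group set the precision.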

Other observations

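Among markers of cortical glutamatergic neurons, Fezf2, a factor of deep-layer neurons that project out of the cortex, had 1099 ± 187 in HT and 1320.3 ± 157 in WT (SD, n = 5), with log2 fold change -0.27 (SE 0.12, unadjusted limma p 0.033, adjusted 0.51). The marker with the lowest mean, Emx1, had 462 ± 43.0 in HT and 496 ± 49.2 in WT (SD, n = 5), with log2 fold change -0.10 (SE 0.085, unadjusted limma p 0.26, adjusted 0.70). Among the pan-neuronal genes, Elavl4, an RNA-binding protein of neurons, had 3059.6 ± 378 in HT and 3754 ± 349 in WT (SD, n = 5), with log2 fold change -0.30 (SE 0.086, unadjusted limma p 0.0037, adjusted 0.41), and the groups did not overlap, as for 1.62% of all genes. Stmn2 and Tubb3, both of the neuronal microtubule system, had log2 fold changes of -0.16 and -0.18, with unadjusted limma p-values of 0.032 and 0.034, and the synaptic vesicle gene Syt1, with the highest mean, had 46681 ± 6061 in HT and 50873 ± 3742 in WT (SD, n = 5), with log2 fold change -0.13 (SE 0.091, unadjusted limma p 0.17, adjusted 0.64).

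All 10 olfactory bulb markers had a log2 fold change above 0, although 1 of them, Cdhr1, had a lower mean in HT (909 ± 653) than in WT (958 ± 812, SD, n = 5) before the log, was above the WT mean in 1 of 5 HT mice and was named after its values were seen. The median log2 fold change was 0.50, with none past adjustment by limma. Trh, the gene of thyrotropin-releasing hormone, had 189 ± 18.4 in HT and 134 ± 29.5 in WT (SD, n = 5), with log2 fold change 0.52 (SE 0.14, unadjusted limma p 0.0029, adjusted 0.41), and the WT mean was exceeded by 5 of 5 HT mice. Synpr, with the highest mean of the list, had 3152 ± 192 in HT and 2981 ± 514 in WT (SD, n = 5), with log2 fold change 0.095 (SE 0.095, unadjusted limma p 0.33, adjusted 0.75), and Slc6a3, the dopamine transporter, with the lowest, had 29.2 ± 14.3 in HT and 16.7 ± 7.76 in WT (SD, n = 5), with log2 fold change 0.77 (SE 0.37, unadjusted limma p 0.057, adjusted 0.55). Of the 12 striatum markers, with a median log2 fold change of 0.54, the one with the highest mean, Pde10a, had 5277 ± 1888 in HT and 4194 ± 1476 in WT (SD, n = 5), with log2 fold change 0.32 (SE 0.28, unadjusted limma p 0.28, adjusted 0.72) and the one with the lowest, Isl1, had 25.8 ± 16.6 in HT and 12.7 ± 12.9 in WT (SD, n = 5), with log2 fold change 1.52 (SE 1.09, unadjusted limma p 0.18, adjusted 0.65). Among the astrocyte markers, the 3 smallest p-values were those of Fgfr3 (log2 fold change 0.21), Aldoc (0.27) and Gjb6 (0.29), with limma adjusted p-values of 0.45, 0.48 and 0.49. Slc1a2, the glutamate transporter of astrocytes with the highest mean, had 119617 ± 10584 in HT and 109387 ± 10222 in WT (SD, n = 5), with log2 fold change 0.13 (SE 0.084, unadjusted limma p 0.15, adjusted 0.62), and Sox9, with the lowest, had 557 ± 104 in HT and 489 ± 79.7 in WT (SD, n = 5), with log2 fold change 0.18 (SE 0.13, unadjusted limma p 0.19, adjusted 0.65). Cacna2d2, the Cajal-Retzius marker with the highest mean, had 1655 ± 246 in HT and 1606 ± 108 in WT (SD, n = 5), with log2 fold change 0.034 (SE 0.089, unadjusted limma p 0.71, adjusted 0.91).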
